A study of Mus musculus with 15 samples.

Results

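The genes that set pancreatic delta cells apart from both alpha and beta cells were sought in 15 samples of sorted mouse islet cells. A gene was counted as a member when the FPKM values (read fragments scaled to transcript length and to the mapped reads of the sample) of all 6 delta cell samples lay above, or all lay below, those of the other 9 samples. Of 38283 genes in the deposited table, 14405 had a mean above 1 FPKM in at least 1 cell type and were examined. The delta samples lay above all others for 437 genes (3.03% of those examined) and below all others for 60 (0.417%). Members were ranked by the smaller difference, which is the lesser of the delta minus alpha and delta minus beta differences in mean log2(FPKM + 1). The rule used the values themselves, so the size of the differences among members describes them and tests nothing.

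All mice were C57BL/6. The 5 alpha and 4 beta cell samples were from mice of genotype Glu-Venus, in which the glucagon promoter drives the fluorophore Venus; light scatter and autofluorescence served to gate beta cells among cells without Venus. The 6 delta cell samples were from mice of genotype Sst-CreXROSA26EYFP/EYFP, in which Cre recombinase under the somatostatin promoter switches on yellow fluorescent protein at the Rosa26 locus. Such a reporter can also mark cells that expressed somatostatin in the past. Mouse line and cell type cannot be told apart in any comparison of delta cells with the rest. Islets of 2 to 5 mice were combined for every sample, and p-values measure the spread between such pools. Alpha and beta samples may share pools, which the main fit did not take into account. In sorted pools, a higher share of expressing cells and more RNA per cell cannot be told apart.

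Delta cells are the somatostatin-secreting cells of the islet. Somatostatin acts through inhibitory G protein-coupled receptors on neighbouring alpha and beta cells and restrains the release of glucagon and insulin. Delta cells are electrically excitable, respond to glucose, and send out cytoplasmic processes through which they reach other islet cells. They share a progenitor that expresses Neurog3 with the other endocrine cells of the pancreas, and the homeobox factor Hhex is required for their differentiation.

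The labels were first checked against Sst, Hhex and Ghsr, the marker genes of delta cells. Sst, which encodes somatostatin, had values in delta cells from 101492 to 266276 FPKM, with a median of 122411. In alpha cells it was at 1177, 1789, 2427, 1139 and 1564 FPKM, and in beta cells at 89.8, 461, 37.9 and 71.2 FPKM. Hhex ranged from 42.1 to 93.2 FPKM in delta cells, with a median of 74.7. It was at 0.334, 2.55, 0.357, 0.049 and 0.32 FPKM in alpha cells and at 0.0845, 0.316, 0.00654 and 0.0458 FPKM in beta cells. Ghsr, the ghrelin receptor, ranged from 6.37 to 14.7 FPKM in delta cells and did not exceed 0.544 FPKM in any other sample. The delta samples lay above all others for each of the 3 markers. The mean of Sst in alpha cells was 0.992% of its mean in delta cells, and those of Hhex and Ghsr were 0.991% and 1.35%. In beta cells the corresponding shares were 0.101%, 0.155% and 0.184%. In the other direction, Gcg in delta cells was at 0.189% of its mean in alpha cells and Ins2 at 1.95% of its mean in beta cells. Other alpha cell genes were not as low. The summed FPKM of 13 alpha cell genes had a median of 47900 in delta, 356000 in alpha and 684 in beta cells. For 17 beta cell genes the medians were 12100 in delta, 7770 in alpha and 375000 in beta cells.

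The promoters of these markers are shown because Sst carries a cyclic AMP response element, through which cyclic AMP raises its transcription. Each sequence runs from 250 bases before to 50 bases after the gene start in RefSeq (GRCm38.p6). Capitals mark matches, on either strand, to TGACGTCA, the full palindromic element, or to TGCTGA, the core of sites for large Maf factors. The core of homeodomain sites, TAATTA, an E-box of basic helix-loop-helix factors, CAGATG, and the core of forkhead sites, TGTTTAC, were searched in the same way and not found in these windows. The windows lie at chr16:23890795-23891094 (minus strand, Sst), chr19:37434591-37434890 (plus strand, Hhex) and chr3:27371101-27371400 (plus strand, Ghsr).
Sst: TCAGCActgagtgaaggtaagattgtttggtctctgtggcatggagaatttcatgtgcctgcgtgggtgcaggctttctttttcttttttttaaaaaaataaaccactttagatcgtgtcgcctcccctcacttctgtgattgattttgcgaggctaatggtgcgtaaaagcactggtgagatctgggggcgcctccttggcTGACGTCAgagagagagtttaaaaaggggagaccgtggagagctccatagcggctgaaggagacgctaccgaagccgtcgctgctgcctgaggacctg
Hhex: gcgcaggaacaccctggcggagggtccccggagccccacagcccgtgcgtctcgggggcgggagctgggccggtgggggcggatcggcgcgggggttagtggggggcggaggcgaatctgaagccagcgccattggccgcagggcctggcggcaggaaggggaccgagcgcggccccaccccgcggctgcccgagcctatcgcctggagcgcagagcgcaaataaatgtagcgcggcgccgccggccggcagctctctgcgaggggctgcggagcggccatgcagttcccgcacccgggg
Ghsr: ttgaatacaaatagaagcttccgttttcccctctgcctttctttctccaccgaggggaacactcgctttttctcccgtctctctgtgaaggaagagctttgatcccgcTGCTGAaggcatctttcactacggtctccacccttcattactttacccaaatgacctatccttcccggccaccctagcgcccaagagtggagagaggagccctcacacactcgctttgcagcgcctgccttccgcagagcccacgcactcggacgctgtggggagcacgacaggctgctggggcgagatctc
The element in Sst began at position -48 relative to the start. It was present in 1.88% of the 27025 promoters of the same length in the reference table, and TGCTGA in 19.1%. Over the 9747 examined genes with a matched promoter, the shares were 3.45% and 14.5%. Promoters could be matched to 321 of the 437 genes above and 40 of the 60 below, which is under 80%, so a comparison of motifs between members and other genes was void. A match describes letters in the window and shows no binding.

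Depth and composition differed between samples in ways that cross the cell types. In 7 samples the low values fell on steps worth 1 read each, which corresponded to 7.4 to 30.9 M reads, with delta samples 3 and 4 at 30.9 and 25.3 M reads. No depth could be read from the remaining samples. Ribosomal protein genes (85 in all) summed to between 65611 and 140979 FPKM in a high set of samples, made up of the first 3 alpha samples, the second beta sample and the first 2 delta samples. They summed to between 7919 and 38775 FPKM in the low set that held the rest. Each cell type had samples with and without Xist, so pools differed in sex within cell types. The median of all genes examined lay 0.13 higher on the log2(FPKM + 1) scale in delta cells when set against alpha cells and 0.30 when set against beta cells, and size factors removed this shift. With size factors, 354 genes lay above and 126 below, and with quantile normalization 332 and 173. Of these, 320 and 292 of those above, and 56 and 58 of those below, were members without such scaling.

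Limma was fitted once to the 15 samples, with p-values adjusted over 14405 genes by the Benjamini-Hochberg method. It called 526 genes higher (3.65%) and 48 lower (0.333%) in delta cells than in both other types at an adjusted p under 0.05. Of the 437 genes above, 367 were called, and of the 60 below, 41. The contrast of this test is the one that chose the members, so these shares are given as a description. A further 159 genes were called higher and 7 lower although samples overlapped. Higher genes made up 91.6% of the calls, against 80.6% with size factors and 75.2% with quantile normalization. The smaller difference had a median of 1.52 over the genes above (0.45 to 6.59) and of -1.86 over the genes below (-6.12 to -0.13). It was over 3 for 41 genes above and past -3 for 13 below. Of the genes above, 248 passed the filter on low values through delta cells only, and 13 were listed at 0 in every alpha and beta sample. Genes that entered in this way bear on every share above, in the gene lists as over all genes. The 437 genes had a median mean of 5.47 FPKM in delta cells. At the edge of the rule, E130317F20Rik had its lowest delta value at 0.90 FPKM and its highest other value at 0.894 FPKM. In the plot of both differences, the members run along the diagonal away from the origin.

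**Figure D1:**
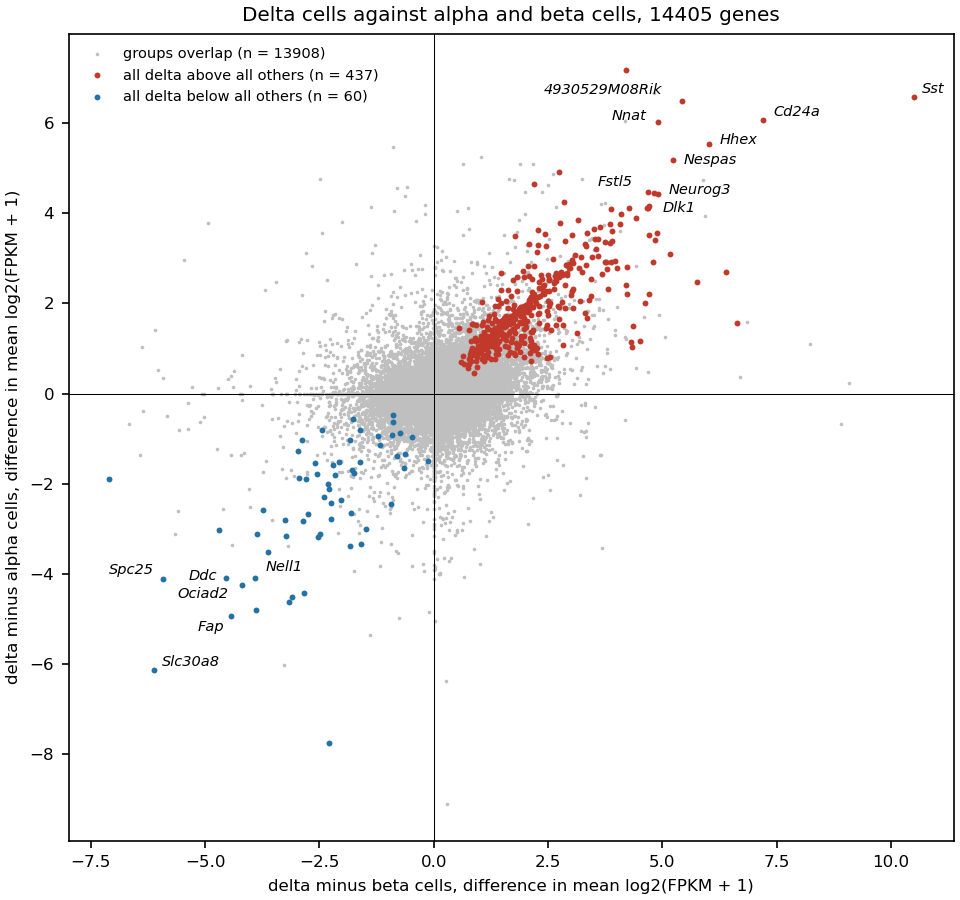
Difference in mean log2(FPKM + 1) of delta minus alpha cells (vertical) against delta minus beta cells (horizontal), with 1 point per gene for 14405 genes. Red points are the 437 genes whose 6 delta samples lie above all 9 others, blue points the 60 whose delta samples lie below, and Sst and Slc30a8 lie farthest out at each end.

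Cd24a, a heavily glycosylated surface protein used to mark epithelial and neural precursors, followed Sst with the largest smaller difference (6.07). It ranged from 297 to 1132 FPKM in delta cells, with a median of 743. In alpha cells it was at 8.85, 8.63, 24.2, 4.42 and 8.72 FPKM and in beta cells at 2.22, 6.46, 1.82 and 7.09 FPKM. Delta sample 6 was the lowest of the delta samples and was 12.2 times the highest other sample. The delta minus alpha difference was 6.07 (standard error 0.461, adjusted p = 3.2e-07, limma) and the delta minus beta difference 7.19 (standard error 0.492, adjusted p = 9.8e-08, limma). Over the 30 called genes with the largest smaller difference, the mean in alpha cells was between 0.331% and 12.8% of that in delta cells (median 1.98%), and the mean in beta cells between 0.0755% and 6.54% (median 0.679%).

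**Figure D2:**
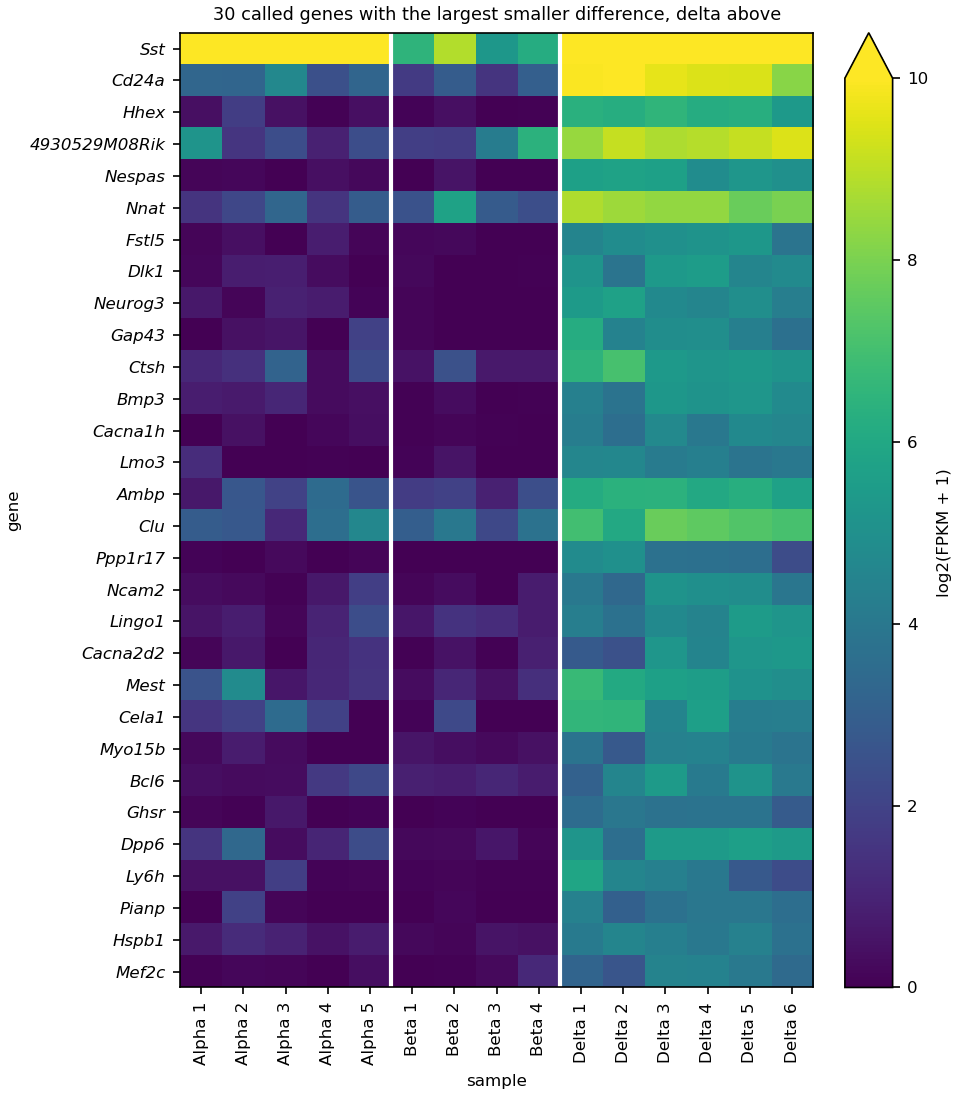
log2(FPKM + 1) of the 30 called genes with the largest smaller difference (rows, in rank order) in 5 alpha, 4 beta and 6 delta cell samples (columns); colour saturates at 10. All 6 delta values exceed every other value in each row (in the Sst row alpha samples also pass the top of the scale); of the other samples, alpha sample 3 is highest in 10 rows, alpha sample 2 in 7 and alpha sample 5 in 6.

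Among 49 entries examined in a list of islet transcription factors, 5 lay above (10.2%) and none below, and 4 were called higher. With size factors 4 lay above and 1 below, and with quantile normalization 3 and 1. The list had a median difference of 0.48 from alpha and 0.38 from beta cells, against 0.13 and 0.30 over all genes. Neurog3, the factor that commits pancreatic progenitors to the endocrine lineage, was one of them. It ranged from 18.4 to 52.5 FPKM in delta cells, with a median of 28.0. It was at 0.568, 0.106, 0.869, 0.673 and 0.0811 FPKM in alpha cells and at 0.0985, 0, 0.0185 and 0.00928 FPKM in beta cells. No other sample came near the lowest delta sample, and the differences were 4.44 (standard error 0.292, adjusted p = 8.4e-08, limma) and 4.91 (standard error 0.311, adjusted p = 7.7e-08, limma). Neurog3 overlaps an annotated gene on the opposite strand, 2010107G23Rik, which was also a member, and reads of the pair cannot be told apart without strand.

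Hnf4a, a nuclear receptor of liver and islet whose mutation causes monogenic diabetes, was expressed in all 3 cell types. It ranged from 9.79 to 14.7 FPKM in delta cells. In alpha cells it was at 1.07, 1.63, 0.448, 3.98 and 6.16 FPKM and in beta cells at 1.02, 1.06, 5.03 and 2.73 FPKM. The gap between the highest other sample and the lowest delta sample was small beside that of Hhex, and the differences were 2.14 and 2.13 (adjusted p = 0.0027 and 0.0033, limma). Sox9, a factor of ducts and progenitors, was higher in delta cells at a low level of 1.29 ± 0.746 FPKM (SD, n = 6). Foxa3 lay above in all delta samples without being called against alpha cells (difference 1.00, adjusted p = 0.14, limma). A further 3 regulators outside the list were among the 30 leading genes. These were the LIM-only cofactor Lmo3 (18.5 FPKM in delta cells, smaller difference 3.99), the transcriptional repressor Bcl6 (23.1 FPKM, 3.43) and the MADS-box factor Mef2c (13.6 FPKM, 3.34). Pdx1, known from beta and delta cells, was at 19.3 FPKM in delta and 19 FPKM in beta cells and overlapped between them. Irx1, a factor of alpha cells, was at 0.366 FPKM in delta cells, beside 0.00633 FPKM in beta cells, and so was no member.

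Several leading genes encode secreted proteins other than somatostatin. Fstl5, a follistatin-like protein, ranged from 13.5 to 38.7 FPKM in delta cells and had a median of 29.8. It was at 0.11, 0.333, 0, 0.732 and 0.104 FPKM in alpha cells and at 0.125, 0.15, 0.00664 and 0.0229 FPKM in beta cells. Bmp3, an atypical bone morphogenetic protein that opposes other family members, ranged from 13.1 to 38.6 FPKM in delta cells. It was at 0.74, 0.663, 1.08, 0.236 and 0.343 FPKM in alpha cells and at 0.0327, 0.263, 0.0245 and 0.0292 FPKM in beta cells. The lowest delta sample was 18.5 times the highest other sample for Fstl5 and 12.1 times for Bmp3, with smaller differences of 4.48 (standard error 0.281, adjusted p = 6.5e-08, limma) and 4.11 (standard error 0.296, adjusted p = 1.8e-07, limma). The extracellular antagonist Cer1 was at 11.3 FPKM in delta cells, with a smaller difference of 3.22, and the ligand Bmp6 was at 5.74 FPKM (2.60). Both were members and were named after their values were seen, and the genes of their pathway were not counted.

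Hepatocyte growth factor and its receptor were both members. Met, the receptor tyrosine kinase, was at 18.0 FPKM in delta cells against 3.29 in alpha and 2.77 in beta cells (smaller difference 2.27, largest adjusted p = 0.0024, limma). The ligand Hgf was at 10.8 FPKM in delta cells and at 0.433 and 0.0606 in alpha and beta cells, and Hgfac, a protease that activates the ligand, was at 31.2 FPKM against 5.01 and 1.95. Hgf and Hgfac were named after their values were seen. Of 24 receptor kinases and cytokine receptors examined, Met and the glial-derived factor co-receptor Gfra2 lay above (8.33%, against 3.03% of all genes). Il1r1, Lifr and Ror2 lay below (12.5%, against 0.417% of all genes). Of these, Il1r1, the interleukin-1 receptor, was called lower (20.9 FPKM in delta cells against 81.8 and 176). Of 22 peptide hormone and neuropeptide genes, Sst and Cbln4 lay above (9.09%, against 3.03% of all genes), and Sst is a delta cell marker. Cbln4, a cerebellin that organises synapses, was at 9.49 FPKM in delta cells and was listed at 0 in all beta samples. Among other secreted proteins, the chaperone Clu was at 145 FPKM in delta cells (smaller difference 3.88) and the protease inhibitor precursor Ambp at 72.1 FPKM (3.90). Sftpd, a collectin of the lung surface chosen after its values were seen, was at 9.13 FPKM in delta cells and was listed at 0 in all 9 other samples.

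Genes of neurite growth and synaptic adhesion were a further list. Of 63 such genes examined, 14 lay above (22.2%) and 1 below, 16 were called higher, and the median differences were 0.94 and 1.00. With size factors 9 lay above and with quantile normalization 8. The members above were Efnb3, Efnb1, Ncam2, Nrp2, Sema4a, Cntn3, Nlgn3, Slit2, Cadm1, Slitrk3, Slitrk5, Nrxn2, Rtn4rl1 and Dscam, of which Efnb1, Slit2 and Cadm1 were not called against alpha cells. Sema4a lost its call under both scalings. Ncam2, a neural cell adhesion molecule, ranged from 9.35 to 34.3 FPKM in delta cells, with a median of 22.1. It was at 0.265, 0.202, 0.0434, 0.578 and 2.6 FPKM in alpha cells and at 0.113, 0.249, 0.00454 and 0.712 FPKM in beta cells. Efnb3, a transmembrane ephrin, averaged 28.9 ± 4.92 FPKM (SD, n = 6) in delta cells, against 3.40 in alpha and 0.0657 in beta cells. Nrxn2 and Nlgn3, which encode partners across the synaptic cleft, were at 4.97 and 3.92 FPKM in delta cells and below 1 FPKM on average in both other types. These genes and Ncam2 were among those that passed the filter through delta cells only, which bears on the share above.

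Gap43, a protein of axonal growth cones that was in no list, ranged from 12.1 to 72.8 FPKM in delta cells. It was at 0, 0.372, 0.47, 0 and 2.84 FPKM in alpha cells and at 0.0952, 0, 0 and 0.013 FPKM in beta cells. Delta sample 1 was the highest by a wide margin, and the smaller difference was 4.16 (standard error 0.422, adjusted p = 7.7e-06, limma). Lingo1, a leucine-rich repeat protein of the Nogo receptor complex, was at 26.5 FPKM in delta cells (3.64), and its co-receptor relative Rtn4rl1 at 12 FPKM (1.48). Nrcam, another adhesion molecule, went the other way, at 0.0261 FPKM in delta cells against 1.05 and 0.987, and was not called against alpha cells (adjusted p = 0.055, limma). The plot of list shares leaves out the delta cell markers and lists with fewer than 10 genes examined. With size factors, as with quantile normalization, 1 gene lay above among the receptor kinases and cytokine receptors, 1 among the sodium and HCN channels, and none of the glucose sensing genes lay below.

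**Figure D3:**
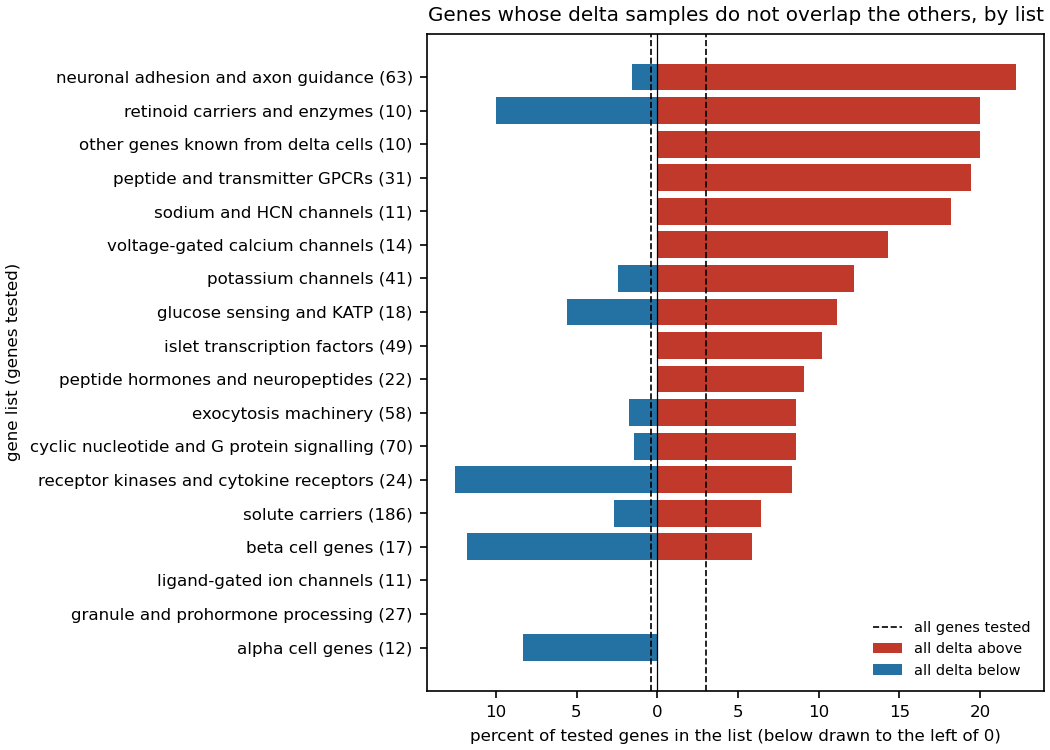
Percent of the examined genes of each list with at least 10 such genes, delta cell markers aside, whose delta samples all lie above (red, to the right) or all below (blue, to the left) the other 9 samples, with the number examined in brackets. Dashed lines mark 3.03% above and 0.417% below over all genes; the neuronal adhesion list reaches 22.2%, and the granule and ligand-gated channel lists have no member.

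Electrical genes included a T-type calcium channel. Cacna1h, whose channel opens at low voltage, ranged from 11.3 to 25.8 FPKM in delta cells, with a median of 20.2. It was at 0.0183, 0.352, 0.011, 0.138 and 0.28 FPKM in alpha cells and at 0.0305, 0.106, 0.0306 and 0 FPKM in beta cells. The differences were 4.11 (standard error 0.251, adjusted p = 5.1e-08, limma) and 4.26 (standard error 0.267, adjusted p = 7.7e-08, limma). Cacna2d2, an auxiliary subunit that brings calcium channels to the membrane, ranged from 4.54 to 39.3 FPKM in delta cells and did not exceed 1.75 FPKM in the others. Its lowest delta values, 6.22 and 4.54 FPKM, were those of samples 1 and 2, which belong to the set with high ribosomal protein FPKM. The smaller difference was 3.61 (standard error 0.524, adjusted p = 0.00026, limma). These were the 2 members among 14 calcium channel genes examined (14.3%). The L-type channel genes Cacna1c and Cacna1d were not called, at 1.73 and 3.59 FPKM in delta cells against 1.57 and 3.53 in alpha and 1.49 and 5.90 in beta cells.

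Of 41 potassium channel genes, 5 lay above (12.2%) and 1 below, and 7 were called higher. Kcnd2, which encodes an A-type channel, ranged from 0.913 to 5.84 FPKM in delta cells and was at most 0.111 FPKM in the others. Dpp6, an auxiliary subunit of these A-type channels that was in no list, ranged from 11.2 to 48.9 FPKM in delta cells, with a median of 42.5. It was at 1.81, 9.51, 0.249, 1.06 and 4.02 FPKM in alpha cells and at 0.173, 0.188, 0.524 and 0.109 FPKM in beta cells. Alpha sample 2 came within 2 FPKM of delta sample 2, the lowest of its group, and the smaller difference was 3.42 (standard error 0.489, adjusted p = 0.00023, limma). Kcna5, Kcnc2, Kcnj4 and Kcnj13 were at 8.04, 1.96, 1.66 and 4.43 FPKM in delta cells. Kcnh6 was called lower, at 0.134 FPKM in delta cells against 9.81 in alpha and 2.18 in beta cells. Without beta replicate 1 this call did not hold (adjusted p = 0.059, limma; 0.0023 to 0.059 over the samples left out). Of 11 sodium and HCN channel genes, Scn3b and Hcn3 lay above (18.2%). Scn3b, a sodium channel subunit, was called higher (10.3 FPKM in delta cells, smaller difference 2.27). Hcn3 was not called against alpha cells (adjusted p = 0.061, limma). Among 11 ligand-gated channels there was no member, and 1 was called higher with overlapping samples. With size factors 1 lay below, and with quantile normalization 1 lay above and 1 below.

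Of 18 genes of glucose sensing examined, the glucose transporters Slc2a1 and Slc2a3 lay above (11.1%) and G6pc2 below (5.56%). Slc2a1 averaged 7.48 ± 0.714 FPKM (SD, n = 6) in delta cells against 2.49 in alpha and 2.08 in beta cells (smaller difference 1.32, adjusted p = 0.0034, limma). Slc2a3 was at 8.44 FPKM against 2.99 and 0.0325, and its call against alpha cells was lost in 4 of the 15 fits that left out a sample (adjusted p from 0.0222 to 0.0534, limma). The subunits of the ATP-sensitive potassium channel, Abcc8 and Kcnj11, had differences of 1.44 and 1.07 from alpha cells (adjusted p = 0.088 and 0.087, limma) and were not called. Slc2a2, the transporter of beta cells, was at 2.53 FPKM in delta cells, 1.84 in alpha cells and 236 in beta cells.

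Of 27 genes of secretory granules and prohormone processing, none was a member, but 1 lay below with size factors and 2 with quantile normalization. Pcsk6, a proprotein convertase, was called higher with overlapping samples. Of 58 exocytosis genes, 5 lay above (8.62%) and 1 below. Rab3b, a vesicle GTPase, ranged from 131 to 231 FPKM in delta cells. It was at 17.2, 19.1, 14.8, 13.5 and 25.8 FPKM in alpha cells and at 14.6, 67.0, 21.1 and 48.2 FPKM in beta cells. The differences were 3.27 (standard error 0.384, adjusted p = 3.3e-05, limma) and 2.46 (standard error 0.409, adjusted p = 0.00072, limma). The vesicle proteins Syt5, Syt6, Syt17 and Syngr1 were also above, at 43.9, 1.41, 1.98 and 6.41 FPKM in delta cells. The calls of Syt17 and Syngr1 were lost in 2 and 6 of the 15 fits that left out a sample. Cadps, which primes dense-core vesicles for release, went the opposite way. It ranged from 1.68 to 4.24 FPKM in delta cells, was at 19.5, 14.8, 11.8, 15 and 23 FPKM in alpha cells, and at 12.6, 27.4, 12 and 23 FPKM in beta cells. The differences were -2.31 (standard error 0.306, adjusted p = 0.00011, limma) and -2.40 (standard error 0.326, adjusted p = 0.00012, limma).

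Of 31 peptide and transmitter G protein-coupled receptors, 6 lay above (19.4%) and none below, whereas 2 lay below with quantile normalization. Besides Ghsr, the vasopressin receptor Avpr1a and the muscarinic receptor Chrm4 were at 7.67 and 6.52 FPKM in delta cells. The orphan receptor Gpr179 was at 19.1 FPKM, the urocortin receptor Crhr2 at 2.40 FPKM and the somatostatin receptor Sstr1 at 1.55 FPKM. All of these but Gpr179 passed the filter through delta cells only, and Ghsr is a delta cell marker, which bears on the share. Of 70 genes of cyclic nucleotide and G protein signalling, 6 lay above (8.57%), against 4 with size factors and 3 with quantile normalization. Among them were the adenylyl cyclases Adcy2 and Adcy8, at 2.05 and 2.52 FPKM in delta cells, and Rgs9, a regulator that shortens G protein signals, at 22.7 FPKM (smaller difference 2.19, largest adjusted p = 0.0011, limma).

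Of the 30 leading genes, Nespas, Nnat, Dlk1 and Mest are known to be imprinted, that is expressed from 1 parental allele, a grouping made after the values were seen and not tested. Nnat, a small membrane protein, ranged from 209 to 449 FPKM in delta cells. It was at 1.87, 3.37, 8.97, 1.82 and 6.55 FPKM in alpha cells and at 4.79, 53.6, 6.4 and 4.32 FPKM in beta cells, where sample 2 stood above the rest. Nnat overlaps Blcap on the other strand, and the annotated microRNA gene AL672259.1 at the same place was a member that was not called against both other types. Dlk1, a transmembrane relative of the Notch ligands, ranged from 13.3 to 45.2 FPKM in delta cells and was at most 0.79 FPKM in the others. Mest, a hydrolase of the endoplasmic reticulum, ranged from 29.4 to 106 FPKM in delta cells, against 4.91, 27.1, 0.514, 1.18 and 1.81 FPKM in alpha cells. Alpha sample 2 was close to the lowest delta sample of Mest. Nespas, an antisense transcript at the Gnas locus, averaged 41.6 ± 10.6 FPKM (SD, n = 6) in delta cells against 0.138 and 0.115 FPKM, with differences of 5.19 and 5.24. It overlaps Gnas on the opposite strand, and 4930529M08Rik, at 516 FPKM in delta cells, likewise overlaps Crnkl1. Reads of either pair cannot be told apart without strand. By annotation, 415 of the 437 genes above and 55 of the 60 below were protein-coding, against 11436 of the 14405 genes examined.

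Genes lower in delta cells than in both other types were led by Slc30a8, which encodes the zinc transporter of insulin granules and is also expressed in alpha cells. It ranged from 0.922 to 3.14 FPKM in delta cells, with a median of 2.58. It was at 289, 376, 384, 96.9 and 149 FPKM in alpha cells and at 166, 568, 97.7 and 276 FPKM in beta cells. Delta cells thus held 0.906% of the alpha and 0.848% of the beta mean, and the differences were -6.14 (standard error 0.48, adjusted p = 4.3e-07, limma) and -6.12 (standard error 0.511, adjusted p = 7.5e-07, limma). Fap, a membrane-bound serine protease, was at most 0.267 FPKM in delta cells and was listed at 0 in sample 4. It was at 62.9, 44.3, 38.6, 24.7 and 12.3 FPKM in alpha cells and at 35.6, 112, 5.57 and 9.57 FPKM in beta cells. The other samples varied widely and none overlapped the delta samples (differences -4.94 and -4.43, largest adjusted p = 0.00018, limma). Fap and the glucagon gene are neighbours on chromosome 2. Alpha and beta samples carry the Glu-Venus transgene, whose place in the genome is not given in the sources used here. Genes around the glucagon gene were not counted by distance, and the part of the mouse line in Fap was not tested.

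Ddc and Maob were also among the 15 leading genes below. Ddc, which makes dopamine and serotonin from their amino acid precursors, ranged from 1.42 to 9.2 FPKM in delta cells. It was at 85.5, 94.9, 116, 94.7 and 102 FPKM in alpha cells and at 112, 372, 48.4 and 160 FPKM in beta cells. Maob, which degrades amines, ranged from 1.03 to 4.88 FPKM in delta cells, against 27.9, 27.2, 27.6, 22.2 and 35.6 FPKM in alpha cells and 39.3, 107, 21.9 and 56.7 FPKM in beta cells. The smaller differences were -4.09 (standard error 0.471, adjusted p = 2.8e-05, limma) and -3.11 (standard error 0.39, adjusted p = 6.3e-05, limma).

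Of 186 solute carriers examined, 12 lay above (6.45%) and 5 below (2.69%), and with size factors 7 lay on each side. Besides Slc30a8, those below were the cationic amino acid transporter Slc7a2, the iron exporter Slc40a1, the amino acid transporter Slc38a4 and the orphan carrier Slc35d3, all called lower. Slc7a2 ranged from 3.11 to 7.33 FPKM in delta cells, against 122, 110, 55.1, 110 and 257 FPKM in alpha cells and 24.2, 51.8, 26 and 63.3 FPKM in beta cells. Slc40a1 was at 0.491 FPKM in delta cells against 12.7 and 9.34. Among those above, Slc29a1, a nucleoside transporter, was at 48.7 FPKM in delta cells (smaller difference 1.48), and Slc16a7, a monocarboxylate transporter, at 13.0 FPKM (2.66).

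The remaining genes with the largest negative differences had varied roles. Lpl, the lipoprotein lipase, was at 1.00 FPKM in delta cells against 48.1 in alpha and 22.1 in beta cells (smaller difference -3.10). Adh1, an alcohol dehydrogenase that also oxidises retinol, was at 1.53 FPKM against 18.2 and 67.0 (-3.03). Wnt4, a secreted Wnt ligand, was at 0.61 FPKM against 12.8 and 10.6 (-2.82). Ttr, the carrier of thyroxine and retinol-binding protein, was at 73.4 FPKM in delta cells, 15646 in alpha and 494 in beta cells (-7.76 and -2.30). The others of the 15 leading genes were Ociad2, Spc25, Nell1, Dapl1, Skap1, Kctd12b and Dock11. Spc25, a kinetochore subunit, was at 2.2 FPKM in delta cells against 55.0 in alpha and 295 in beta cells, and its gene lies 4879 bases from G6pc2. G6pc2, the islet glucose-6-phosphatase, was at 9.31 FPKM in delta cells against 39.3 in alpha and 1941 in beta cells, and was not called against alpha cells (adjusted p = 0.081, limma).

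**Figure D4:**
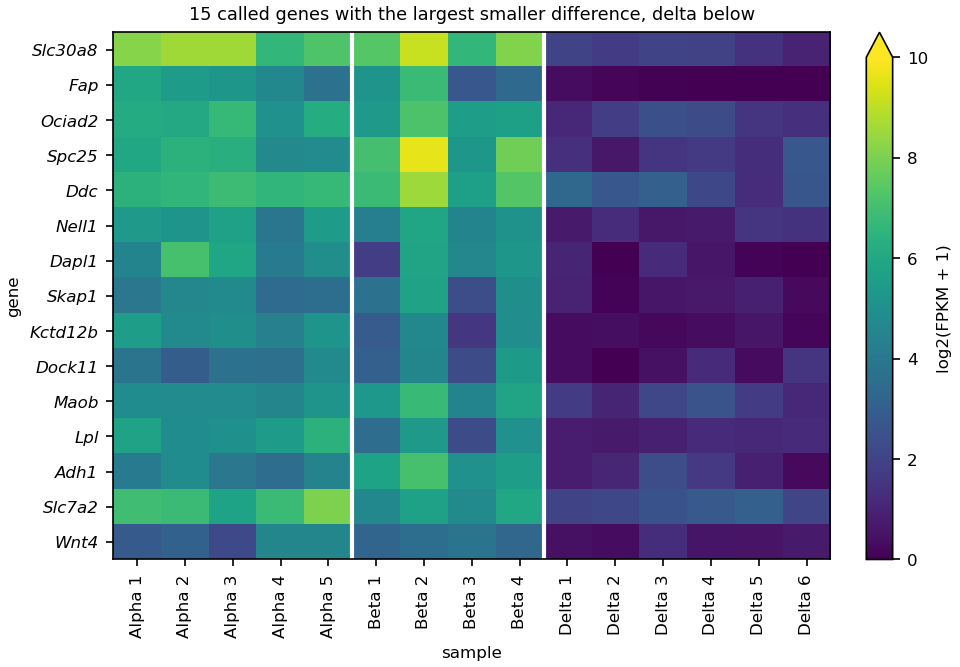
log2(FPKM + 1) of the 15 called genes with the largest smaller difference among those lower in delta cells (rows, in rank order) in 5 alpha, 4 beta and 6 delta cell samples (columns); colour saturates at 10. The 6 delta columns are darkest in each row, and beta sample 2 is the brightest in the rows of Slc30a8, Spc25 and Ddc.

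Because delta cells came from a mouse line of their own, genes within 2 Mb of Sst, whose promoter drives Cre, and of the Rosa26 reporter locus were described. Where Cre lies in the genome is not given in the sources used here. Around Sst on chromosome 16, 27 other genes were examined, and 4 of them (14.8%) lay above with none below, against 3.03% of all genes. All 4 were called higher. They were Bcl6, Rtp4, Masp1 and Fetub, at 74.1, 275.4, 368.8 and 949.8 kb from Sst, and the first 3 were the examined genes nearest to it. Bcl6 ranged from 7.72 to 42.7 FPKM in delta cells, against 0.299, 0.24, 0.243, 2.2 and 3.49 FPKM in alpha cells and 0.835, 0.76, 1.12 and 0.689 FPKM in beta cells. Rtp4, a chaperone of receptors at the membrane, ranged from 5.34 to 33.2 FPKM in delta cells and reached 3.76 FPKM in alpha and 2.65 FPKM in beta cells. Masp1, a protease of the lectin pathway of complement that overlaps Rtp4 in the annotation, ranged from 0.776 to 5.99 FPKM in delta cells and was above 0 in only 1 other sample, alpha sample 2, at 0.0459 FPKM. Fetub, a plasma protease inhibitor, ranged from 0.937 to 5.17 FPKM in delta cells and was listed at 0 elsewhere. Around Gt(ROSA)26Sor on chromosome 6, 2 of 32 genes (6.25%) lay above, Rpusd3 and Il17re. The transcript Gt(ROSA)26Sor itself was between 2.48 and 5.98 FPKM in delta cells, 3.79 and 27.7 in alpha cells and 1.06 and 26.9 in beta cells. The part of the mouse line in these values was not tested.

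**Figure D5:**
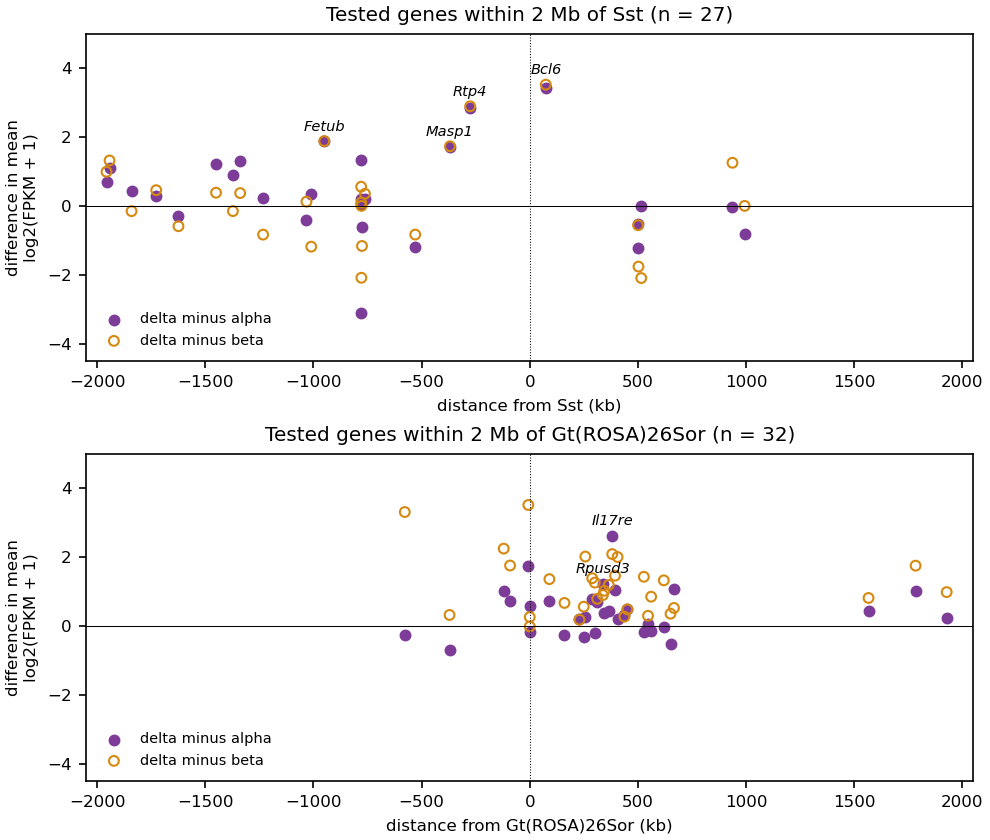
Difference in mean log2(FPKM + 1) of delta minus alpha cells (filled) and delta minus beta cells (open) for the examined genes within 2 Mb of Sst (top, 27 genes) and Gt(ROSA)26Sor (bottom, 32 genes), by distance in kb. Names mark genes whose delta samples lie above all others; the 3 genes nearest to Sst are among them, at differences of up to 3.52.

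Markers of other pancreatic cells were read beside these results. The summed FPKM of 16 acinar cell markers was between 92.7 and 708 in delta cells, 8.17 and 123 in alpha cells and 0.0447 and 26.4 in beta cells. Of the 14 of them examined, 2 lay above (14.3%), among them the elastase gene Cela1. Cela1 ranged from 17.9 to 95.2 FPKM in delta cells and reached 10.2 FPKM in alpha cells. Ctrb1, a chymotrypsinogen that defines acinar cells, was at 53.4, 29.1, 27.4, 340, 1.12 and 2.44 FPKM in delta samples 1 to 6, and Amy2a5 was at 0 in all 15 samples. Ctrb1 thus varied widely between delta samples, and samples 2, 3, 5 and 6 lay within the alpha range of 0 to 33 FPKM. The sum of 10 duct markers was 40.2 to 111 in delta cells, 40.5 to 185 in alpha cells and 14.3 to 33.2 in beta cells. Krt19 was at 0 in all delta samples, whereas Muc1 ranged from 0.621 to 1.40 FPKM in delta cells and reached 0.490 FPKM elsewhere, and Cftr was above 0 in 5 of 6 delta samples, at up to 0.929 FPKM, and at 0 elsewhere. Sox9 is also on this list. Summed immune markers were at 22.8 to 44.8 FPKM in delta cells, 8.82 to 28.4 in alpha cells and 1.38 to 21.9 in beta cells, most of it C1qa. Summed markers of endothelial and mesenchymal cells did not exceed 7.12 and 4.95 FPKM in any sample. The pancreatic polypeptide gene Ppy was at 21470 FPKM in delta and 30420 in alpha cells against 45.0 in beta cells and was no member. The part of other cells in the members was not tested.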

How the data were processed

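RNA of 15 samples of sorted mouse islet cells was amplified, made into libraries and sequenced without strand information being stated. According to the methods and the submitters' processing notes, the authors mapped the reads onto the GRCm38 genome with TopHat2 (2.0.8 in the notes) and computed FPKM per gene with Cufflinks 2.2.1; the deposited table holds these FPKM values. FPKM is relative to the mapped reads of a sample, so a few very abundant hormone transcripts lower the values of all other genes. The authors' edgeR comparison used read counts, which were not used here.

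Genes with a mean above 1 FPKM in at least 1 cell type were examined. Values were taken as log2(FPKM + 1), with a pseudocount of 1, which understates the change of low genes, and tested with limma 3.58.1 in R 4.3.3. Delta minus alpha and delta minus beta were contrasts of 1 fit, and a call needed adjusted p-values under 0.05 for both with the same sign. Genes named are the 30 leading called genes above, the 15 below, called members of the gene lists, and markers; all other genes, among them list genes without a call and those at the edge of the rule, were named after their values were seen. Some genes of the lists are not reported here. The members and lists were chosen with earlier results of these data known. Annotation is GENCODE M21 (GRCm38), and promoters are from RefSeq.

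The alternatives were a filter at 5 FPKM or none, size factors, quantile normalization, a pseudocount of 0.1, the ribosomal set as a covariate or alone, the replicate number as a block, fits of 2 cell types, a threshold of 0.01, and leaving out each sample.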

Additional observations from a re-analysis of the deposited data

Results flagged for a closer look

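Of 90 groups of values (30 genes described in 3 cell types), 11 had a sample that lay far from the others by Dixon's test on the log2(FPKM + 1) scale; chance gives about 4.5. The values are given without an explanation. In delta cells, Hhex was low in sample 6 (42.1 FPKM against 72.1 to 93.2) and Dpp6 was low in sample 2 (11.2 against 36.4 to 48.9). In beta cells, sample 2 was high for Ghsr (0.0656 against 0.00517 to 0.00926), Bmp3 (0.263 against 0.0245 to 0.0327), Nnat (53.6 against 4.32 to 6.4) and Cela1 (3.58 against 0 to 0.0782). The same sample had the highest Sst of its group, 461 FPKM against 37.9 to 89.8 FPKM, and the largest size factor of all samples (1.714). Gap43 was high in beta sample 1 (0.0952 against 0 to 0.013). In alpha cells, Hhex was high in sample 2 (2.55 against 0.049 to 0.357), Ghsr in sample 3 (0.544 against 0.0251 to 0.104), Gap43 in sample 5 (2.84 against 0 to 0.47) and Masp1 in sample 2 (0.0459, with the others listed at 0).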

How the results depend on the processing

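Each of the 30 leading genes above and the 15 leading genes below kept its call and its direction under every alternative in which it was examined, including each fit that left out a sample. The leading genes and all called members of the gene lists, whether or not the text names them, made up 102 genes. Of these, 83 did so and none changed direction, and 11 lost a call in at least 1 fit without a sample. All 102 were chosen by these same values, so keeping a call or a direction was largely built in and tests nothing. For these genes, whose samples do not overlap, leaving out a sample cannot reverse the direction. With size factors, delta samples overlapped others for 10 of the 98 of these genes examined, and with quantile normalization for 12 of 97. Leaving out each sample gave 416 to 581 genes higher, 38 to 58 lower, 443 to 572 above and 58 to 79 below; the fewest calls higher came without delta replicate 4 and the most without alpha replicate 5. Where a sample was removed, more genes can fail to overlap by construction. A filter at 5 FPKM gave 256 genes higher and 233 above among fewer genes examined, and a threshold of 0.01 gave 287 higher and 30 lower. Size factors gave 105 lower and 126 below, and quantile normalization 136 and 173; the cause was not tested. In the samples of the high set alone, 1777 genes lay above and 1168 below, and in the low set alone 1357 and 150, with fewer samples to overlap. With the set as a covariate, 656 genes were higher and 66 lower. The deviations of same-numbered samples correlated between -0.152 and 0.281 over 13 pairs. Delta samples came from another mouse line and could share no pool with the others. Alpha and beta cells both came from Glu-Venus mice, so their same-numbered samples may share a pool. Between alpha and beta samples the correlations were -0.152 to 0.271, which cannot decide whether pools were shared. With the replicate number as a block, 439 genes were higher and 39 lower, of which 411 and 37 were called without it. Depth limits the lowest values, and it is unknown for 8 samples.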

Other observations

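Of the 437 genes above, chromosome 6 held 35 (5.22% of its 670 examined genes) and chromosome 16, which carries Sst, held 21 (4.61% of 456), against 3.03% of all genes. Chromosome 8 held 12 (1.69% of 712). Over the 437 genes, the highest value outside delta cells was most often that of alpha sample 5 (107 genes), followed by beta sample 2 (68) and alpha sample 2 (61). The size factor is the median ratio of a sample's genes to their geometric means. It was 1.191, 1.714 and 1.246 in these samples, against 0.4575 to 1.037 in the other alpha and beta samples. The part of scaling in these counts was not tested. Another annotated gene overlapped 54.1% of the genes above, 46.7% of those below and 60.1% of all genes examined, and these shares were not tested.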
